A study of Mus musculus with 15 samples.

Results

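Splicing events with a value in at least 1 but not all of 15 mouse muscle libraries are described here. They were chosen by the presence of values, so where a value is present is given as a description and is not tested. Of 39123 events in the deposited table, 7856 were measured in only some libraries, 31267 were measured in all 15 and 0 had no value at all. The 7856 events, called partly measured from here on, make up 20.1% of the table. Each value is the percent spliced in (PSI), the fraction of a gene's messages, from 0 to 1, that carry one form of an alternative segment. A missing value is not a measure of expression: it says only that the table gives no fraction for that event in that library.

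The mice model myotonic dystrophy type 1, a muscle disease caused by an expanded CUG repeat whose RNA ties up the muscleblind-like (MBNL) splicing factors. The 6 induced libraries came from mice homozygous for TREDT960I, the repeat transgene, that also carried MDAFrtTA, the doxycycline-dependent activator, and received doxycycline (dox) from postnatal day 1. The 6 no-dox libraries came from mice with both transgenes and no dox, and the 3 dox-control libraries from TREDT960I mice without MDAFrtTA that received dox. Both kinds of control carry the repeat transgene, and together they are the 9 controls. Each of weeks 6, 12 and 20 has 2 induced libraries and 3 controls. The labels name quadriceps for 5 libraries and gastrocnemius for 10, and a single library was from a male mouse (week 6 no dox replicate 2). The labels do not say what drives MDAFrtTA, nor whether any libraries share an animal, so p-values measure only the spread between these libraries.

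Alternative splicing joins the exons of one gene in different ways. A skipped exon is left out of some messages, a retained intron is kept in some, and alternative 5' or 3' splice sites move the edge of an exon. Alternative first exons, last exons and tandem UTRs come from other start sites or ends, and mutually exclusive exons replace each other. In skeletal muscle MBNL proteins drive the switch from fetal to adult exons in genes of the sarcomere and of calcium handling, and that switch is impaired in myotonic dystrophy. PSI is read here as inclusion where an exon is skipped and as retention where an intron is kept. For the other types the table does not say which form it measures, and no direction is read into it. Event positions are on the mouse build mm10, 1-based, and events named by a gene ID are placed at that gene in RefSeq (GRCm38.p6, the same assembly).

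The sequences of 4 alternative splice site events among the partly measured events are shown because their sites could be read from a reference, and they were chosen after their values were seen. They lie in the RefSeq promoter windows of GRCm38.p6, which run from 250 bases before to 50 bases after a gene's start and held 13 such events. Of their 26 sites, 22 carried the usual AG at an acceptor or GT at a donor. Sites are counted per event, and the Adcy3 events share their sites. The capitals mark the dinucleotide beside each splice site, and the Klf3 run AGG covers both of its listed sites. Outer names the site nearer the start of the gene and inner the one nearer its end. The outer Utrn acceptor therefore gives the longer exon, and the outer Arpp21 donor the shorter one. The first Klf3 site has AG and the second GG, one of the 4 sites without the usual letters.
Klf3 listed acceptor sites, chr5:64816721-64816750, plus strand: gttttgttttctAGGccagacatcagaaca
Rasgrp2 acceptors, chr19:6401704-6401733, plus strand: cacttctcccAGgacAGgggtccgaattga
Utrn outer acceptor, chr10:12861725-12861744, minus strand: tcctgttAGgtattcatgct
Utrn inner acceptor, chr10:12861695-12861714, minus strand: atttttcAGatttagccttc
Arpp21 outer donor, chr9:112217246-112217265, minus strand: tggtgacctgGTgaggctgc
Arpp21 inner donor, chr9:112217218-112217237, minus strand: ttcacatccgGTaatcagac

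The 2 listed Klf3 sites are 1 base apart. Klf3 encodes a Krüppel-like transcription factor. Its event had PSI of 0.56, 0.3, 0.16 and 0.24 in 4 of 6 induced libraries and no value in any of the 9 controls. In Rasgrp2, a guanine nucleotide exchange factor for Rap1, the acceptors are 5 bases apart, and the event lacked a value only in week 20 no dox replicate 2. The Rasgrp2 PSI averaged 0.51 ± 0.087 in 6 induced libraries and 0.584 ± 0.144 in 8 controls (SD). Utrn encodes utrophin, the homologue of dystrophin, and its acceptors are 30 bases apart. That event averaged 0.665 ± 0.198 in 4 induced libraries and 0.746 ± 0.08 in 5 controls. The donors of Arpp21, a cAMP-regulated phosphoprotein, are 28 bases apart. Its PSI averaged 0.253 ± 0.14 in 6 induced libraries and 0.349 ± 0.091 in 8 controls, a fitted difference of -0.11 with an SE of 0.045 (limma adjusted p = 0.775). In Rasgrp2, Utrn and Arpp21 the induced and control ranges overlap.

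A value was present in 1 library alone for 925 events and in 14 libraries for 1279 events, and each number between held 336 to 707 events. The most common partly measured event lacked a single value, and the next most common had a single value. The events fell into 3018 different sets of libraries, and 2075 events had a set that no other event shared. Of 1547 genes with 2 or more partly measured events, 184 had values for all of those events in the same libraries.

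Libraries differed in how many of the 7856 events they covered. The 6 induced libraries had 3430 to 5692 values (median 4229; mean 4369 ± 826, SD), and the 9 controls had 3149 to 5112 (median 3932; mean 4045 ± 643). The arms overlap, and the fullest library, week 12 induced replicate 2, stands apart from its partner, which had 3718. By week the means were 4627 ± 488 at week 6, 4209 ± 910 at week 12 and 3688 ± 395 at week 20 (5 libraries each). The 5 quadriceps libraries averaged 3756 ± 509 values, and the 10 gastrocnemius libraries 4384 ± 726. Muscle and week are not separate here, since 3 of the 5 quadriceps libraries are from week 20.

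**Figure D1:**
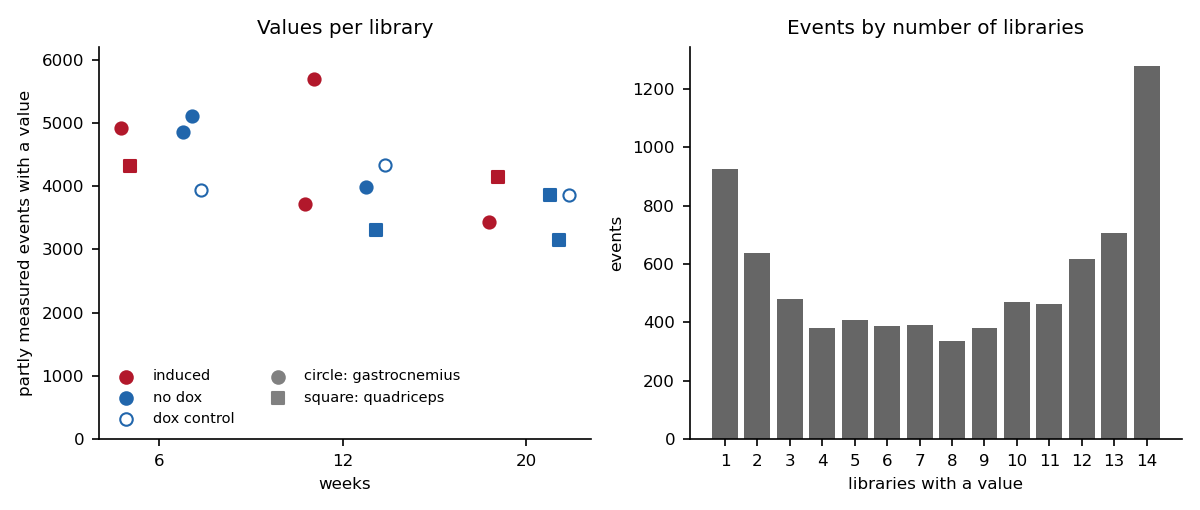
Left, the number of partly measured events with a value (y axis) in each library by week (x axis, evenly spaced); red is induced, filled blue is no dox, open blue is dox control, circles are gastrocnemius and squares quadriceps. Right, the number of events (y axis) by how many libraries had a value (x axis); 925 events had 1 library and 1279 had 14.

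Single values were concentrated in 2 libraries. Of the 925 events with a single value, 195 were in week 12 induced replicate 2 and 126 in week 6 no dox replicate 2. The second is the male library: all 21 events of 4 Y-linked genes, Uty, Kdm5d, Ddx3y and Eif2s3y, had a value there and in none of the other 14 libraries, which matches the labelled sexes. At the other end, week 20 no dox replicate 2 was the only library without a value for 212 events, week 12 induced replicate 1 for 181 and week 12 no dox replicate 2 for 161.

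Event types differed in how often they were partly measured. The share was highest for alternative first exons, 1604 of 6222 (25.8%), followed by alternative 3' splice sites, 1133 of 4711 (24.1%), and alternative 5' splice sites, 649 of 2936 (22.1%). Mutually exclusive exons had 259 of 1259 (20.6%), skipped exons 2386 of 11680 (20.4%), retained introns 485 of 2677 (18.1%) and alternative last exons 1260 of 8438 (14.9%). Tandem UTRs stood lowest with 80 of 1200 (6.7%). The alternative segment of partly measured skipped exons had a median length of 99 nucleotides, against 107 in fully measured ones, and 143 of them (6.0%) were microexons of up to 30 nucleotides, against 416 (4.5%) of the fully measured. Partly measured retained introns had a median of 218 nucleotides, against 260.5 in the fully measured.

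**Figure D2:**
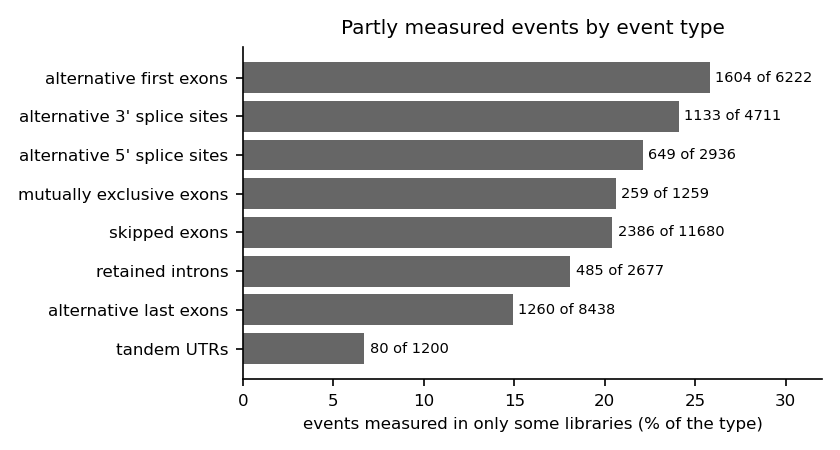
The bars give the percentage of each event type (y axis) measured in only some libraries (x axis, from 0), with the number of events beside each bar. Alternative first exons reach 25.8% and tandem UTRs 6.7%.

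The partly measured events lay in 3539 genes, 35.6% of the 9930 genes with an event. In 1460 of these genes every event was partly measured, and in 2079 some events were measured in all libraries. The most such events were in Madd (34 of 47), a regulator of Rab3 and of cell death signalling, Adgrl3 (33 of 38), an adhesion receptor of synapses, and Reln (27 of 38), which encodes the secreted guidance protein reelin. Tenm4 (23 of 27), Trpm3 (22 of 30) and Dlgap1 (21 of 25) were also among the genes with most. Genes of these kinds are best known from the nervous system. For 120 partly measured events no symbol could be assigned.

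Gene groups of muscle were mostly measured throughout. The sarcomere list stands for the labelled tissue: 37 of 45 genes had events and only 9 of 167 events (5.4%) were partly measured. The energy metabolism list had 3 of 94 (3.2%), the broadly expressed control genes 4 of 61 (6.6%), the genes that depend on MBNL or change in myotonic dystrophy 38 of 524 (7.3%), the RNA-binding splicing factors 19 of 240 (7.9%), endothelial and smooth muscle markers 8 of 93 (8.6%), and extracellular matrix and fibroblast markers 11 of 95 (11.6%). Kinases and phosphatases of insulin signalling had 46 of 318 (14.5%). Shares were higher for fat cell markers, 7 of 27 (25.9%), for regeneration, development and denervation, 21 of 75 (28.0%), and for calcium handling and ion channels, 56 of 162 (34.6%). They were highest for nerve and Schwann cell markers, 81 of 190 (42.6%), immune cell markers, 42 of 91 (46.2%), and cell cycle genes, 33 of 54 (61.1%), apart from the Y-linked list, where all 21 were partly measured.

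Induced and control libraries differed in which events had a value. An event is counted as measured more often in induced muscle where the share of induced libraries with a value exceeded the share of controls by at least 0.5, and less often where it fell short by as much. By that rule 253 events of 172 genes were measured more often in induced libraries, 0.647% of the whole table, and 79 events of 61 genes less often, 0.202% of the table. Among partly measured events these are 3.22% and 1.01%. Since presence of values chose the events, the counts are described only. Week 12 induced replicate 2 had 235 of the 253 events, the other induced libraries 162 to 216 and the controls 18 to 76. Without that library the count more often in induced is 154. Without the 2 fullest and the 2 emptiest libraries, a setting chosen after seeing the data, 225 events were more often and 185 less often measured in induced libraries. The count less often in induced is 45 without week 12 induced replicate 1, which had 5 of those 79 events.

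There were 7 events of 6 genes with a value in all 6 induced libraries and in 0 of 9 controls. No event had the opposite pattern of 0 induced libraries and all 9 controls, but 10 events of 8 genes had 0 induced libraries and 6 or more controls. Tnnt3 encodes troponin T of fast skeletal muscle and is regulated by MBNL proteins. Its pair of mutually exclusive exons (chr7:142507750-142510709, plus strand, with an exon of 19 nucleotides at 142507845-142507863) had PSI of 0.08, 0.03, 0.04, 0.02, 0.07 and 0.1 in induced libraries. All 6 values are low, and the other 3 Tnnt3 events were measured in every library. Slc2a6 encodes the glucose transporter GLUT6. Its skipped exon of 162 nucleotides (chr2:27023088-27023249, minus strand) had PSI of 0.71, 0.89, 0.76, 0.74, 0.87 and 0.79 in induced libraries. The Slc2a6 alternative 5' splice sites over the same exons had 0.43, 0.78, 0.57, 0.46, 0.8 and 0.76, and these 2 events share sequence. All 12 Slc2a6 events were partly measured: 7 were measured more often in induced libraries, 7 had no control value and none was measured less often.

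The others were in genes of diverse roles. The retained intron of the predicted gene Gm2694 (chr8:87524428-87525231, plus strand, 804 nucleotides) had PSI of 0.57, 0.64, 0.18, 0.08, 0.17 and 0.59 in induced libraries, a wide spread. Aldh3a1 encodes an aldehyde dehydrogenase, and its alternative 5' splice sites (chr11:61208742-61212393, plus strand) had 0.02 to 0.12. Sytl1 encodes a synaptotagmin-like partner of Rab27, and its alternative first exons (gene at chr4:133253090-133263087) had 0.08 to 0.23. None of the 4 Sytl1 events had a value in any control. Rhbdl2 encodes a rhomboid protease, and its alternative last exons (gene at chr4:123787875-123830196) had 0.04 to 0.39. With 6 induced libraries and 1 control, Dsp, which encodes desmoplakin of desmosomes, had PSI of 0.52 to 0.78 in induced libraries and 0.55 in week 6 no dox replicate 2. Ggt6, a member of the gamma-glutamyltransferase family, had 0.19 to 0.82 in induced libraries and 0.49 in the week 20 dox control.

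Fewer genes had values mainly in controls. Plch2 encodes a phospholipase C, and 6 of its 7 events had no value in any induced library. Its skipped exon of 27 nucleotides (chr4:154985366-154985392, minus strand) had PSI of 0.5, 0.27, 0.59, 0.29, 0.58, 0.51 and 0.42 in 7 controls. Fgf5 encodes a fibroblast growth factor. Its exon of 104 nucleotides (chr5:98261943-98262046, plus strand) had PSI of 0.68 in week 6 induced replicate 1, the only induced value, and 0.26 to 0.81 in 8 controls. For Trim27, a ubiquitin ligase of the tripartite motif family, the exon of 94 nucleotides (chr13:21190593-21190686, plus strand) had 0.41 in that same induced library and 0.47 to 0.6 in 8 controls.

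Another 5 named events had 0 induced libraries and 6 controls. They are in Adgrl3, Atp13a5, which encodes a P-type ATPase, Bspry, Cacna1c, which encodes an L-type calcium channel subunit, and Myocd, a coactivator of smooth and cardiac muscle genes. The Bspry intron (chr4:62496572-62496981, plus strand) was mostly retained in controls, at 0.72 to 0.92. The Myocd alternative first exons had 0.15 to 0.39 in 6 controls of weeks 12 and 20 and no value at week 6 in either arm.

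**Figure D3:**
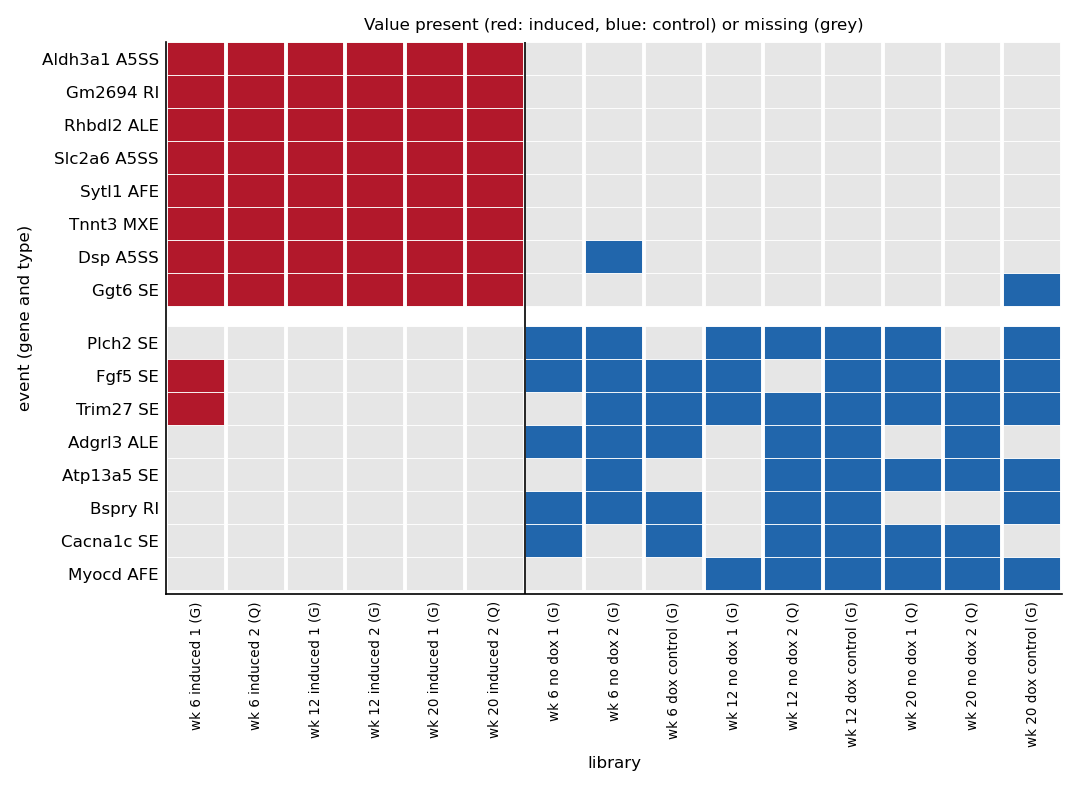
Each row is an event (gene and type) and each column a library, induced left of the line and controls right of it, with muscle in brackets (G gastrocnemius, Q quadriceps). A coloured tile is a value and a grey tile a missing one; the upper 8 events have 6 induced values and at most 1 control value, the lower 8 at most 1 induced value and 6 to 8 control values.

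Most events gained in induced libraries were in genes without a fully measured event. Of the 246 with a symbol, 88 (35.8%) were in genes that also have a fully measured event, against 63.2% of all partly measured events with a symbol. For the events less often measured in induced libraries it was 43 of 78 (55.1%). Events gained in induced libraries had values in a median of 5 libraries, against 8 over all partly measured events. The part of that difference in the 35.8% was not tested. Among the 253, 203 (80.2%) had a value in an induced library of every week, against 52.6% of all partly measured events. A control of every week had a value for 23, and no control did for 111. The rule that chose the 253 largely sets these counts, so they do not measure agreement between weeks. By type, 77 of the 253 were skipped exons and 49 alternative last exons, while 40 were alternative first exons and 36 alternative 3' splice sites. Tandem UTRs gave 8 of their 80 events. Besides Slc2a6, the genes with most such events were Dcstamp (6 of 7), which encodes a protein needed for osteoclast fusion, Klhl32 (6 of 11), Lair1 (6 of 11), an inhibitory receptor of leukocytes, and Tcrb and Xlr3a (5 of 7 each). Tcrb is the T cell receptor beta locus, and Xlr3a belongs to a family of near-identical copies. The assignment of reads was not examined for either and may be uncertain. All 7 Dcstamp events, and 9 of the 11 of Lair1, had no control value.

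In the list of immune cell markers, 42 events of 21 genes were partly measured, with 8 to 33 values per library in induced libraries (median 26.5) and 10 to 28 in controls (median 18). The ranges overlap. Of these events 4 were measured more often in induced libraries and 0 less often, where the shares over all partly measured events, which also apply to the lists that follow, are 3.22% and 1.01%. Nothing particular to a list is read from such small counts. Cd4, a coreceptor of helper T cells, had alternative last exons with PSI of 0.83 to 0.93 in 5 induced libraries and of 0.83 and 0.89 in 2 controls. Vav1 encodes an exchange factor of blood cells and had alternative first exons with 0.38 to 0.68 in 5 induced libraries and 0.39 and 0.33 in 2 controls. Outside that list, Zap70, a kinase of T cell receptor signalling, had an event with 6 induced values of 0.14 to 0.54 and 2 control values of 0.08 and 0.45. The Cd4 and Zap70 events were picked after their values were seen. The part of such cells in the presence of values was not tested, and in whole muscle fewer cells of a type and less RNA per cell cannot be told apart.

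Cell cycle events had 14 to 22 values in induced libraries (median 15.5) and 3 to 27 in controls (median 9), and 3 of 33 were measured more often in induced libraries and 0 less often. For Prc1, which organises the midzone of dividing cells, a skipped exon of 96 nucleotides (chr7:80309393-80309488, plus strand) had PSI of 0.71 to 0.81 in 5 induced libraries and of 0.86 and 0.68 in 2 controls. The list of regeneration, development and denervation had 15 to 20 values in induced libraries (median 17) and 6 to 17 in controls (median 12), with 2 of 21 events measured more often in induced libraries and 0 less often.

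Tnnt2, the cardiac troponin T that immature muscle also makes, had 2 partly measured events of 6. Its alternative 3' splice sites (chr1:135836334-135840912, plus strand) had PSI of 0.77, 0.8, 0.87 and 0.87 in 4 induced libraries and 0.59 in 1 control. In the list of MBNL-dependent genes 2 of 38 events were measured more often in induced libraries and 0 less often, and in the sarcomere list 1 of 9 and 0. Calcium handling and ion channels had 0 and 2. The lists of splicing factors, energy metabolism, insulin signalling, matrix, nerve, endothelial, fat, broadly expressed and Y-linked genes had 0 in both directions.

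Quadriceps libraries lacked values more often than they gained them. With the same difference of 0.5 in share, 149 events of 109 genes were measured more often in quadriceps, 0.381% of the table, and 529 events of 379 genes less often, 1.35% of the table. Among controls alone, with fewer libraries behind each share, the counts were 269 and 1076. No quadriceps control is from week 6, so muscle and week cannot be told apart in those counts. Leaving out 1 gastrocnemius library in turn, the 529 became 311 when week 6 induced replicate 1 was dropped and 310 when it was week 12 induced replicate 2. It was 351 with the dox control of week 12 dropped, and 319 and 307 with no-dox replicates 1 and 2 of week 6 dropped. The 149 became 228 without week 12 no dox replicate 2, a quadriceps library. It became 81 to 99 without either week 6 no-dox library, any dox control, replicate 1 of the induced libraries of week 12 or of week 20, or the gastrocnemius no-dox library of week 12. Of the 529, 14 were in Madd and 7 in Gria3, an AMPA receptor subunit. There were 3 events with a value in 0 of 5 quadriceps and all 10 gastrocnemius libraries, and no event had the reverse. They belong to neighbouring genes of the HoxA cluster, which patterns the limb along its length, Hoxa13 and the antisense RNA Hoxa11os. Hoxa13 alternative 3' splice sites 3 bases apart (chr6:52259864-52260802, minus strand) had PSI of 0.61, 0.45, 0.53 and 0.53 in 4 induced gastrocnemius libraries and of 0.35 to 0.64 in 6 gastrocnemius controls. The 2 Hoxa11os events overlap (chr6:52245985-52246808, plus strand), with 0.12 to 0.38 in induced libraries and 0.14 to 0.6 in controls.

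Genes with values mainly in quadriceps were fewer. All 3 events of Pax3, a transcription factor of muscle precursors, had values in 4 of 5 quadriceps libraries and 0 of 10 gastrocnemius libraries. The retained Pax3 intron (chr1:78102836-78103327, minus strand) had PSI of 0.64 and 0.58 in 2 induced libraries and of 0.5 and 0.83 in 2 controls. Celf3, a CELF family RNA-binding protein, and Usp29, a deubiquitinase, also had 4 quadriceps values and no gastrocnemius value. Of 81 partly measured events of nerve and Schwann cell markers, 10 were measured less often in quadriceps and 2 more often. Their part in these counts was not tested.

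**Figure D4:**
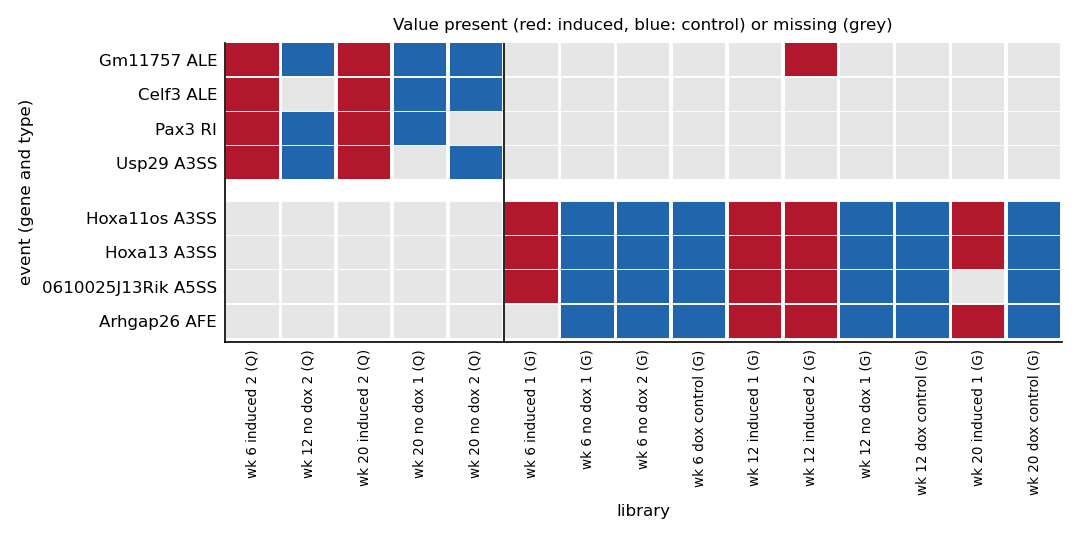
Each row is an event and each column a library, quadriceps left of the line and gastrocnemius right of it; red is a value in an induced library, blue a value in a control and grey a missing value. The Hoxa11os and Hoxa13 events have 10 gastrocnemius values and no quadriceps value.

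Values were lost towards week 20. With a difference of at least 0.6 between the shares of the 5 week 20 and the 5 week 6 libraries, 87 events of 70 genes were measured more often at week 20, 0.222% of the table, and 659 events of 442 genes less often, 1.68% of the table. Among controls alone, with fewer libraries behind each share, the counts were 245 and 1026. There the 3 week 6 libraries are all gastrocnemius, while 2 of the week 20 libraries are quadriceps. Week and muscle cannot be told apart in those counts. Leaving out 1 library, the 659 became 401 without week 6 induced replicate 1, 438 and 406 without week 6 no dox replicates 1 and 2, and 424 without week 20 no dox replicate 2. The 87 became 53 without the week 6 dox control and 56 without week 20 induced replicate 2. Of the 659, 195 were also measured less often in quadriceps. Among all partly measured events, 39 of 28 genes had values in all 5 week 6 libraries and 0 week 20 libraries, and 2 events of 1 gene had the reverse. That gene is Il1rapl2, a member of the interleukin-1 receptor family, one of whose events had 0 values at week 6, 4 at week 12 and 5 at week 20. Its week 20 PSI was 0.12 and 0.12 in induced libraries and 0.1, 0.11 and 0.09 in controls. Baz1a, a chromatin remodelling subunit, had 5 values at week 6, 5 at week 12 and 0 at week 20 for its alternative 3' splice sites (chr12:54927564-54929665, minus strand). Adam33, a metalloprotease, Glb1, the lysosomal beta-galactosidase, and Nrcam, a neural adhesion molecule, each had an event with 5, 4 and 0 values at weeks 6, 12 and 20. Armcx1 had most such events (10 of 14), followed by Robo2, a guidance receptor (9 of 15). Eml4, Syt9 and Foxp2 each had an event with 0 values at week 6 and 4 at week 20.

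PSI itself varied more between libraries in partly measured events. The median SD between libraries was 0.095 in induced muscle and 0.099 in controls, against 0.039 and 0.041 in fully measured events. The step lies at the threshold of the rule: events with 14 values had median SDs of 0.094 and 0.104, and those with all 15 had 0.039 and 0.041. PSI values lay between 0.05 and 0.95 in 95.0% of partly measured values and 65.5% of fully measured ones, and 0.1% of partly measured values were at 0, against 3.7%. Fractions near 0 or 1 have less room to vary, and the SDs were not compared at matched PSI. Pearson's r between libraries, across events that are not independent replicates, was 0.683 to 0.811 over partly measured events and 0.943 to 0.968 over fully measured ones. The depth behind each value is unknown.

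Differences in PSI between arms could be tested for 4496 partly measured events (57.2%), those with at least 3 values per arm and an estimable difference, within a limma fit over 35763 events with terms for arm, week and muscle. No partly measured event passed an adjusted p of 0.05 with a difference of at least 0.1, and over all events tested the share was 0%. The smallest adjusted p was 0.238. At an unadjusted p under 0.05 there were 323 partly measured events (7.18%), 163 higher and 160 lower in induced muscle, against 6.21% of all events tested, a share near the background. An exact permutation test per event had 204 at an unadjusted p under 0.05 and called 0, but it could hardly have called any. With 6 induced and 8 control values its smallest possible p is 0.000333, too large after adjustment unless very many events reach it. With 3 values per arm the smallest is 0.1. The fitted difference was 0.1 or more in size for 904 events (20.1%) and for 4.0% of fully measured ones, with median SEs of 0.063 and 0.023.

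In 36 partly measured events the induced and control values did not overlap and the means differed by at least 0.1, 21 higher and 15 lower in induced libraries. Over all tested events 41 (0.115%) were higher and 21 (0.0587%) lower. Of the 36, 26 had only 3 values in the smaller arm, and with at least 4 values per arm 4 higher and 6 lower remained. These events were picked for the gap between their values, so the adjusted p-values beside them, all from limma, are descriptions of size.

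Dnase1, which encodes a secreted endonuclease, had the largest difference in means among those with higher PSI. Its exon of 97 nucleotides (chr16:4039545-4039641, plus strand) had PSI of 0.71, 0.92, 0.89, 0.91, 0.91 and 0.81 in induced libraries and of 0.16 to 0.63 (median 0.51) in 8 controls. Every induced value lies above every control, at a fitted difference of 0.39 with an SE of 0.074 (adjusted p = 0.272). An intron upstream in the same gene (chr16:4038043-4038186, 144 nucleotides) was retained at 0.34, 0.34, 0.31, 0.25, 0.62 and 0.82 in induced libraries and at 0.66 to 0.83 in 8 controls. There the week 20 induced libraries are close to or among the controls and the other 4 are below them, and the fitted difference was -0.34 with an SE of 0.069 (adjusted p = 0.306).

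Gli2, a transcription factor of hedgehog signalling, had 0.69 to 0.81 in 4 induced libraries and 0.41 to 0.61 in 6 controls for an exon of 106 nucleotides (chr1:118890296-118890401, minus strand). The fitted difference was 0.24 with an SE of 0.054 (adjusted p = 0.504). Lama4, a laminin chain of basement membranes, had alternative last exons at 0.55, 0.8 and 0.67 in 3 induced libraries and at 0.14 to 0.53 in 6 controls, with no overlap. The remaining named events with higher PSI, in Utrn, Sema4a, Chrd, Odf2, Edn3, Mcf2l and Tmem44, had 3 or 4 induced values and 3 control values each. In Edn3 the gap was narrow, with 0.87, 0.92 and 0.86 in induced libraries against 0.84, 0.84 and 0.39 in controls.

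Among events with lower PSI, Slc18a1, a vesicular monoamine transporter, and Glis3, a zinc finger transcription factor, each had 13 values. The Slc18a1 exon of 75 nucleotides (chr8:69077189-69077263, minus strand) had PSI of 0.42, 0.3, 0.39 and 0.33 in 4 induced libraries and of 0.49 to 0.75 (median 0.62) in all 9 controls. The fitted difference was -0.27 with an SE of 0.049 (adjusted p = 0.272). Glis3 had alternative first exons at 0.28 to 0.5 in 5 induced libraries and at 0.51 to 0.75 in 8 controls, so that the groups nearly touch (difference -0.21, SE 0.043, adjusted p = 0.306). The predicted gene Gm10125 had an exon of 84 nucleotides (chr18:5583713-5583796, minus strand) included at 0.26 to 0.37 in 4 induced libraries and at 0.54 to 0.71 in 7 controls. Card14, a scaffold of NF-kappaB signalling, had alternative 5' splice sites at 0.12 to 0.25 in 6 induced libraries and at 0.42, 0.59 and 0.51 in 3 controls.

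Dtnb encodes beta-dystrobrevin, a relative of the muscle protein alpha-dystrobrevin. Its exon of 90 nucleotides (chr12:3773551-3773640, plus strand) had 0.35, 0.42, 0.22, 0.5 and 0.42 in 5 induced libraries and 0.73, 0.78 and 0.73 in 3 controls. The fitted difference was -0.39 with an SE of 0.091 (adjusted p = 0.623), and 7 of the 8 values are from gastrocnemius. A Cacna1c exon of 33 nucleotides (chr6:118630399-118630431, minus strand) had 0.23, 0.3 and 0.24 in 3 induced libraries and 0.7, 0.67, 0.31 and 0.56 in 4 controls. The same exon, joined to another upstream exon, is the Cacna1c event that had 0 induced and 6 control values. Epb41l3, a membrane skeleton protein, had 0.11, 0.31 and 0.12 in 3 induced libraries and 0.52, 0.49 and 0.46 in 3 controls for an exon of 36 nucleotides. Adgrl3 alternative first exons had 0.14 to 0.35 in 5 induced libraries and 0.55, 0.53 and 0.62 in 3 controls, at a fitted difference of -0.35 with an SE of 0.051 (adjusted p = 0.314). Krtcap3 and Cd226 complete the named events.

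**Figure D5:**
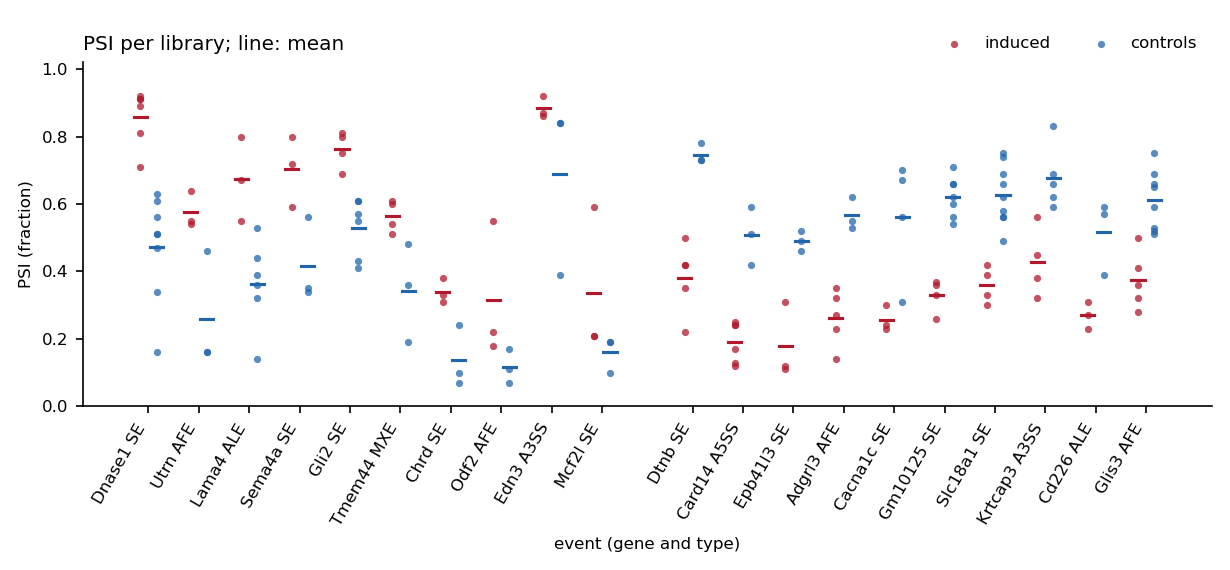
PSI (y axis, 0 to 1) of the 20 named events whose values do not overlap (x axis), each point a library and each line a mean, induced (red) left of controls (blue). The left 10 events are higher and the right 10 lower in induced libraries; Dnase1 has 6 and 8 values, and many others 3 per arm.

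Small unadjusted p-values also fell on other events. A Madd exon of 72 nucleotides (chr2:91158417-91158488, minus strand) had PSI of 0.91, 0.78, 0.95, 0.93, 0.85 and 0.76 in induced libraries and of 0.67 to 0.85 in 7 controls. The groups overlap, and the fitted difference was 0.12 with an SE of 0.019 (adjusted p = 0.238). Cpsf3, the nuclease that cuts messages before polyadenylation, had alternative first exons at 0.24, 0.18, 0.21 and 0.17 in 4 induced libraries and at 0.01 to 0.09 in 7 controls, without overlap (difference 0.15, SE 0.021, adjusted p = 0.238). Slc35b3, a sulfate donor transporter of the Golgi, had 0.33, 0.19, 0.36 and 0.42 in 4 induced libraries and 0.1 to 0.24 in 9 controls, with overlap (difference 0.17, SE 0.029, adjusted p = 0.271). One Slc2a6 alternative last exon event had 0.03 to 0.17 in 6 induced libraries and 0.08 to 0.27 in 7 controls (difference -0.14, SE 0.028, adjusted p = 0.312).

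Myh8, the perinatal myosin heavy chain that regenerating fibres also make, had 11 partly measured events of 23. Its intron of 106 nucleotides (chr11:67289837-67289942, plus strand) was retained at 0.12, 0.03, 0.05, 0.03, 0.12 and 0.32 in induced libraries and at 0.24 to 0.51 (median 0.365) in 8 controls. Of the 6 induced values 5 lie below all controls, and week 20 induced replicate 2 has 0.32, within the control range (difference -0.25, SE 0.048, adjusted p = 0.277). A second Myh8 intron of 1149 nucleotides (chr11:67285022-67286170) had 0 to 0.09 in induced libraries and 0.02 to 0.14 in 8 controls. Chrng, the fetal gamma subunit of the acetylcholine receptor, had alternative last exons at 0.02 to 0.15 in 6 induced libraries and at 0.06 to 0.57 in 7 controls (difference -0.18, SE 0.077, adjusted p = 0.781). The Chrng alternative first exons had 0.54 and 0.49 in the 2 week 12 induced libraries and no other value. Ncam1, an adhesion molecule of immature and denervated fibres, had alternative first exons at 0.01 to 0.12 in 6 induced libraries and at 0.05 to 0.22 in 8 controls (adjusted p = 0.779). Runx1, a factor of denervated muscle, averaged 0.652 ± 0.085 in 6 induced libraries and 0.652 ± 0.125 in 8 controls for an exon of 192 nucleotides.

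Across the regeneration, development and denervation list, 15 partly measured events were tested, 0 were called, 6 had an unadjusted p under 0.05 and all of these were lower. Their median difference was -0.074, against -0.0004 over all tested partly measured events. Of the 6, 4 are events of Myh8 and share a gene, and the others are in Ncam1 and Chrng. A Myh8 alternative last exon event among them averaged 0.11 in 6 induced libraries and 0.337 in 7 controls. Dmd, the dystrophin gene, had alternative first exons at 0.15 to 0.4 in 4 induced libraries and at 0.18 to 0.72 in 9 controls, with overlap. A Ttn exon of 84 nucleotides (chr2:76832850-76832933, minus strand), of the giant spring protein titin, averaged 0.83 ± 0.113 in 6 induced libraries and 0.807 ± 0.136 in 8 controls. Of the 24 genes to be named whatever the result, most had no partly measured event.

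No other list had a called event, and unadjusted p-values under 0.05 were few. Among MBNL-dependent genes 2 of 27 tested events were higher and 1 lower, with a median difference of -0.01. One was Cacna2d1, a calcium channel subunit, with 0.56, 0.57, 0.64, 0.78 and 0.75 in 5 induced libraries and 0.43, 0.3, 0.35, 0.63 and 0.29 in 5 controls, an overlap of 1 control value (adjusted p = 0.748). Calcium handling had 1 higher and 3 lower of 28, insulin signalling 2 and 2 of 31, the matrix list 2 and 0 of 11, nerve markers 2 and 0 of 43, cell cycle 1 and 0 of 14, splicing factors 0 and 1 of 13, endothelial markers 0 and 1 of 5. Sarcomere genes had 0 and 0 of 6, fat cell markers 0 and 0 of 6, broadly expressed genes 0 and 0 of 3, energy metabolism 0 and 0 of 2, and no Y-linked event could be tested.

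Immune markers had 0 higher and 1 lower of 20. That event was the alternative first exons of Ptprc, the leukocyte antigen CD45, with 0.24, 0.07, 0.37, 0.13 and 0.53 in 5 induced libraries and 0.45 to 0.56 in 8 controls. Of the 5 induced values 4 lie below all controls, at a fitted difference of -0.26 with an SE of 0.072 (adjusted p = 0.557). Rbfox2, an RNA-binding splicing factor of muscle, averaged 0.437 ± 0.064 in 6 induced libraries and 0.524 ± 0.076 in 8 controls for its alternative first exons, with overlap (difference -0.09, SE 0.038, adjusted p = 0.779). Rptor, the raptor subunit of a growth kinase complex, averaged 0.502 ± 0.135 in 6 induced libraries and 0.381 ± 0.135 in 8 controls (difference 0.15, SE 0.056, adjusted p = 0.738).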

How the data were processed

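The deposited table gives one fraction (PSI) per splicing event and library, printed to 2 decimals, with a dash where no value is given, per the file headers. Its name calls the fractions MISO output, and the submitters' processing notes name TopHat and mm10; tool versions, the transcript annotation and what a dash stands for were not given in the sources used here. Without read counts the depth is unknown, and events of low and high coverage weigh alike. Columns were matched to libraries by the identifier in the title (the week 6 induced pair is numbered the other way round in the column names); 0 columns belong to other samples.

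Events with a gene ID took the RefSeq symbol of that ID, and for events named by position the file's symbol was used only if RefSeq places that gene there, otherwise the gene around the event. PSI was tested with limma 3.58.1 in R 4.3.3 (variance trend, robust moderation, terms for arm, week and muscle, two-sided, Benjamini-Hochberg over all tested events). The fit was tested on simulated data, with large changes placed only in events of small SD. That setting does not show how well smaller changes would be found. Replicate numbers were not used to pair the libraries in the main fit. Named events were those with the largest differences in share of libraries (8 each way by arm, 4 by muscle and by week), up to 10 each way called or not overlapping, 1 or 2 per gene list (15 lists) and up to 2 in each of 24 fixed genes; others were added after their values were seen. The members and lists were chosen with earlier results of these data known. Some items that the naming rule selects are not reported here.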

Additional observations from a re-analysis of the deposited data

Results flagged for a closer look

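Of 77 groups of 4 to 10 values looked at, 6 held a value far from the others, and chance flags about 1 group in 20. Week 12 induced replicate 2 was the only library with a value for 195 events, far above the other 5 induced libraries. For the Myh8 intron of 106 nucleotides, week 20 induced replicate 2 stood at PSI 0.32, far above the other 5 induced values. The Katnal2 alternative first exons, in a gene for a katanin-like protein, had 0.11 in week 6 induced replicate 1, far above the other induced values of 0.01 to 0.04. For the Myh7 alternative last exons, in the slow myosin heavy chain gene, week 6 induced replicate 2 had 0.55 and the other 4 induced libraries 0.01. The Esrrb alternative first exons had 0.62 in week 6 induced replicate 1 and 0.85 to 0.89 in the other 4 induced values. For the Plin1 alternative 5' splice sites, week 6 no dox replicate 1 had 0.67, above the other 5 control values.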

How the results depend on the processing

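No partly measured event was called under any of the 29 alternatives for PSI. Of these, the exact permutation test could hardly have called any. All 639 refits of 28 named events kept the direction of the difference. Most of these events were picked for the gap between their values, and some refits left out a library without a value for the event. A reversal was therefore unlikely from the start. With the replicate block, 0 events were called and the smallest limma adjusted p was 0.854. Deviations of same-numbered libraries correlated at 0.01, -0.012 and 0.015 at weeks 6, 12 and 20. Some of these libraries differ in muscle, so the correlations cannot settle whether the numbers are a pairing by design. The count of events more often in induced libraries, 253, was 112 at a share difference of 0.6, 425 against no-dox libraries alone and 402 in gastrocnemius alone, 225 without the 2 fullest and 2 emptiest libraries (chosen after seeing the data), and 154 to 332 with 1 library left out. The count less often in induced, 79, was 124 at 0.4, 29 at 0.6, 169 against no-dox libraries, 303 in gastrocnemius, 185 without those 4 libraries, and 45 to 105 with 1 left out. Among controls alone, where muscle and week cannot be told apart, 269 events were more and 1076 less often measured in quadriceps. At week 20, 245 were more and 1026 less often measured. With 1 of all libraries left out the counts were 81 to 228 and 307 to 715 for quadriceps, and 53 to 89 and 401 to 607 for week 20. Events without overlap, an analysis chosen after seeing the data, numbered 4 higher and 6 lower with 4 values per arm, 1 and 1 with 5, 33 and 24 against no-dox libraries, and 36 and 49 in gastrocnemius, with 17 to 31 and 15 to 24 when 1 library was left out. The cause of these moves was not tested. In subsets with fewer libraries each library weighs more in a share, so those counts cannot be compared directly with the full ones. Read depth per value is unknown, so an event with few reads cannot be told from one with many.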

Other observations

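Events of other gene groups, named as the widest in share of libraries or the smallest in p within their list, gave these values. Cntn1, an adhesion molecule of nerve, had alternative last exons with no induced value and with 0.03, 0.27, 0.02 and 0.03 in 4 controls. Ppargc1a, a coactivator of mitochondrial genes, had 0.3 in 1 induced library and 0.28, 0.59 and 0.65 in 3 controls at its alternative 3' splice sites. Map2, a microtubule protein of neurons, had alternative first exons at 0.68, 0.33 and 0.37 in 3 induced libraries and at 0.22 to 0.34 in 4 controls (difference 0.37, SE 0.117, limma adjusted p = 0.779). Vwf, the von Willebrand factor of endothelium, had alternative first exons at 0.01 to 0.14 in 5 induced libraries and at 0.02 to 0.35 in 7 controls (difference -0.15, SE 0.055, limma adjusted p = 0.733). Prc1 alternative first exons had 0.53 to 0.63 in 6 induced libraries and 0.5 to 0.54 in 7 controls (difference 0.07, SE 0.026, limma adjusted p = 0.779). The groups overlap in Map2, Vwf and Prc1.

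Several named events differed little in PSI between arms. Ly6a, a surface marker of fibroblast and progenitor cells, averaged 0.48 ± 0.097 in 6 induced libraries and 0.423 ± 0.091 in 6 controls. Tia1, an RNA-binding splicing factor, averaged 0.498 ± 0.125 in 5 induced libraries and 0.522 ± 0.067 in 4 controls. Rictor averaged 0.842 ± 0.042 in 4 induced libraries and 0.854 ± 0.036 in 9 controls. Erg, an endothelial transcription factor, averaged 0.58 ± 0.154 in 4 induced libraries and 0.637 ± 0.094 in 9 controls, and Acaca, an acetyl-CoA carboxylase, 0.506 ± 0.161 in 5 induced libraries and 0.454 ± 0.163 in 9 controls. Tbp, the TATA-binding protein, averaged 0.537 ± 0.049 in 3 induced libraries and 0.517 ± 0.202 in 7 controls, and Rps18, a ribosomal protein, 0.477 ± 0.088 in 6 induced libraries and 0.501 ± 0.069 in 8 controls. The limma adjusted p-values of these events lay at 0.919 or above.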
